A study of Canis lupus familiaris with 6 samples.

Results

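The 9 genes described here encode enzymes that build triglyceride from glycerol 3-phosphate and fatty acids: ACSL1, GPAM, GPAT3, AGPAT2, AGPAT3, LPIN1, LPIN2, DGAT1 and DGAT2. They were chosen by name for their place in the pathway, and all 9 of them were found among the 23299 genes of the deposited table. The samples were 6 RNA libraries made from canine adipose-derived stem cells, precursor cells isolated from dog fat. There were 3 BPA libraries, from cells given 1 µM bisphenol A, a plastics monomer that binds oestrogen receptors, and 3 control libraries, from cells given the solvent DMSO. Both groups spent 14 days in the same adipogenic medium, added after 2 days of culture, with 1 µM dexamethasone (a glucocorticoid), 200 nM rosiglitazone (a PPARG agonist) and 10 µg/mL insulin. The labels do not say whether the replicates were separate cultures or animals, so p-values measure only the spread between these libraries, which may be technical.

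Triglyceride is assembled mainly at the endoplasmic reticulum. Acyl-CoA synthetases such as ACSL1 activate fatty acids, glycerol-3-phosphate acyltransferases (GPAM, GPAT3) add the first acyl chain, and lysophosphatidate acyltransferases (AGPAT2, AGPAT3) add the next and give phosphatidate. Lipins (LPIN1, LPIN2) remove its phosphate to give diacylglycerol, and diacylglycerol acyltransferases (DGAT1, DGAT2) add the last chain. In fat cells the pathway fills the lipid droplet, and diacylglycerol and phosphatidate also feed phospholipid synthesis.

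Levels are in TPM, a gene's share of the transcripts of its library, corrected for transcript length and scaled to a total of 1000000, so genes can be set side by side within a library. TPM keeps no read depth, so no counting interval can be given for any value. Because the total is fixed, a gene can lie lower where others lie higher. The test took genes whose log2(TPM + 1) averaged 1 or more, which kept 12277 genes and 8 of the 9 enzymes. AGPAT3, with a mean of 0.93 on that scale, fell under the limit. Differences are BPA minus control on the log2(TPM + 1) scale, a scale that understates changes of low genes, with limma's standard error (SE).

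The libraries varied mainly along an axis other than treatment. The first principal component held 79.8% of the variance between libraries, with BPA replicate 3 at 61.1 and control replicate 2 at 11.3, and the other libraries from -29.9 to -0.10. Adipocyte markers were present and 7 of 8 averaged higher with BPA, where their summed level was 636 to 898 TPM, against 609 to 720 TPM in control. That sum is mostly LPL, the lipase that frees fatty acids from lipoproteins, at 408 to 576 TPM with BPA and 396 to 493 TPM in control. LEP, the leptin gene, was the 1 marker of the list with a lower mean, at 125 to 145 TPM with BPA and 157 to 167 TPM in control. ADIPOQ, PLIN1, FABP4 and CIDEC had ratios of BPA mean to control mean of 3.08, 3.52, 2.46 and 3.07, with an adjusted p of 0.901 by limma. In each of them every BPA library lay above every control library, as in 5.38% of all tested genes. CEBPA overlapped, at 3.29, 7.48 and 14.5 TPM in BPA replicates 1, 2 and 3 and 3.89 to 7.76 TPM in control. Without BPA replicate 3 the CEBPA ratio of means was 0.998. PPARG itself lay between 0.169 and 0.357 TPM with BPA and between 0.0988 and 0.129 TPM in control. Stromal markers summed to 8696 to 35230 TPM with BPA and 7556 to 14830 TPM in control, highest in BPA replicate 3. The sum of that library is mostly COL1A1, at 24500 TPM. PDGFRA, ENG, COL1A1 and COL3A1 were highest in BPA replicate 3. LUM (2005 TPM), DCN (1005 TPM) and NT5E were lowest there of all 6 libraries. For PDGFRA every BPA library lay above every control library, at 94.7 to 128 TPM with BPA and 69.0 to 83.9 TPM in control. Its ratio of means was 1.42, with an adjusted p of 0.901 by limma. The other stromal markers analysed overlapped between groups. NT5E, a stromal surface marker, stayed at or below 0.222 TPM in every library. Smooth muscle markers (3 of 4 analysed, 1 of them higher on average with BPA) summed to 1587 to 2238 TPM with BPA and 1859 to 2157 TPM in control. Among them CNN1 was below every control library in each BPA library, at 0.817 times the control mean. Endothelial markers summed to at most 0.668 TPM with BPA and 0.520 TPM in control, and the leukocyte marker PTPRC was below 0.01 TPM throughout. The macrophage list as a whole (3 of its 4 genes analysed) summed to 29.0 to 49.6 TPM with BPA and 25.6 to 36.6 TPM in control, mostly CD14. CD68, of the same list, averaged lower with BPA, at 4.76 TPM against 5.78 TPM in control. For CD68, BPA replicates 1 and 2 lay below every control library and BPA replicate 3 above. In bulk RNA, more fat cells and more RNA per fat cell cannot be told apart, and the part of cell makeup in the values below was not tested.

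None of the 8 tested enzymes passed in the comparison of BPA with control, which asked how BPA alters the messenger RNA of differentiating fat cells. By limma with Benjamini-Hochberg adjustment over all 12277 genes, 0% were called higher and 0% lower, with no adjusted p below 0.901. At an unadjusted p under 0.05, 1 of the 8 enzymes, LPIN1, was higher and 0 were lower, beside 1.87% of all tested genes higher and 1.7% lower. These shares stand for 230 genes higher and 209 lower. After median centring 107 genes were higher and 201 lower at that limit, and LPIN1 no longer met that limit. In 2 enzymes, LPIN1 and ACSL1, every BPA library lay above every control library, and in 0 every BPA library lay below. Over all tested genes 5.38% were separated upwards and 3.98% downwards. On the log2 scale the BPA mean was above control for 6 of 8 enzymes, beside 56.6% of all tested genes. The others, AGPAT2 and GPAT3, had slightly higher means with BPA in TPM, at ratios of 1.02 and 1.006. The median difference was 0.20 for the 8 enzymes and 0.03 over all tested genes.

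GPAM was the most abundant in both groups, at 80.4 ± 11.4 TPM with BPA and 70.6 ± 1.17 TPM in control (SD, n = 3 each). AGPAT2, ACSL1 and LPIN2 followed, with means from 12.1 to 21.0 TPM with BPA and from 10.1 to 20.6 TPM in control. GPAT3, DGAT1, DGAT2, LPIN1 and AGPAT3 completed the order, all below 7 TPM in every library. Both groups gave the same order of means. Of the neighbours in it, AGPAT2 and ACSL1, GPAT3 and DGAT1, and DGAT1 and DGAT2 overlapped between their BPA libraries. In control the overlapping neighbours were DGAT1 and DGAT2, and LPIN1 and AGPAT3.

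**Figure D1:**
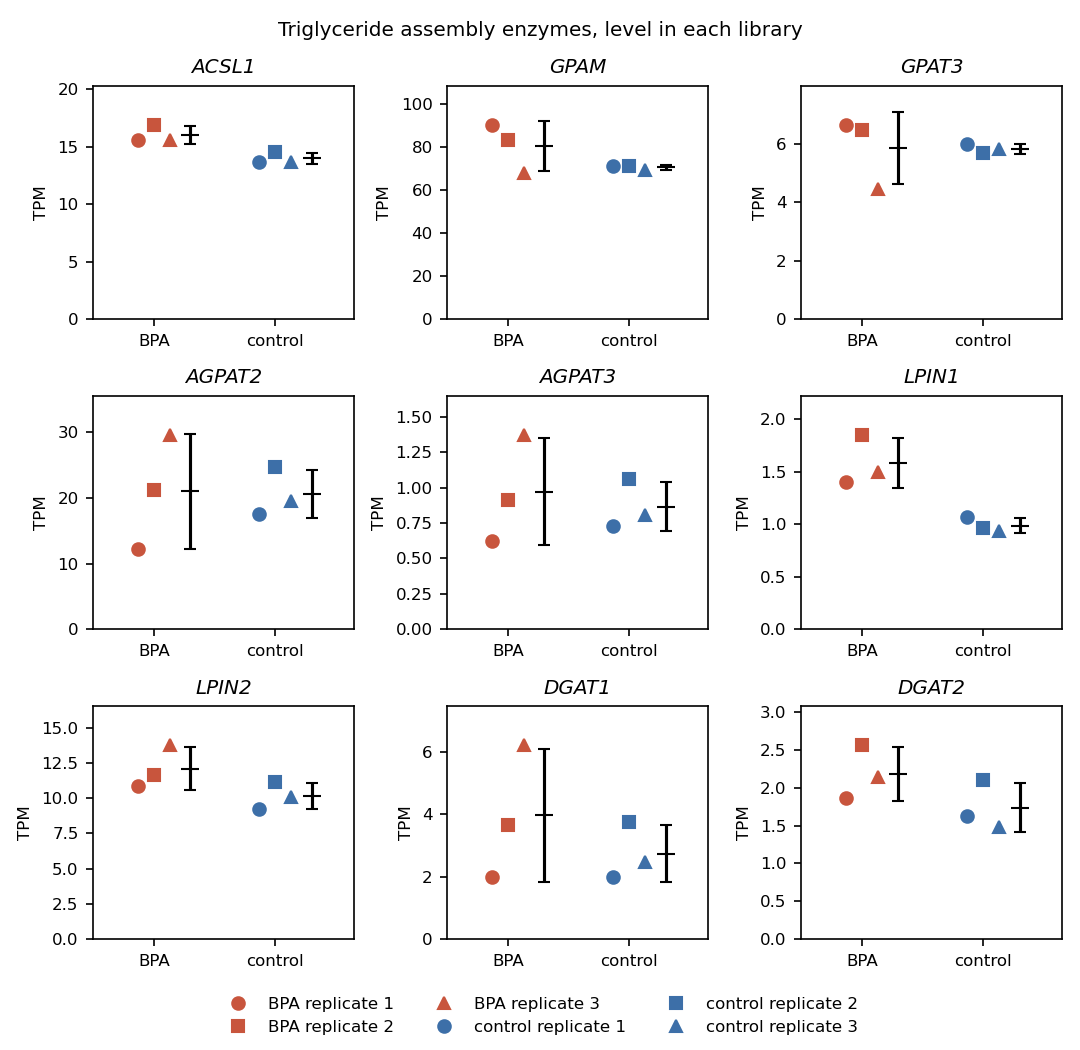
Level in TPM of each of the 9 enzymes (vertical axes start at 0 and differ between panels) in the 3 BPA libraries and the 3 control libraries, with the group mean and SD as a black bar. ACSL1 and LPIN1 are the panels in which the groups do not overlap, and DGAT1, AGPAT2 and AGPAT3 are highest in BPA replicate 3, with 6.23, 29.6 and 1.37 TPM.

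ACSL1, the long-chain acyl-CoA synthetase typical of fat cells, had 15.6, 16.9 and 15.6 TPM in BPA replicates 1, 2 and 3, against 13.7, 14.6 and 13.7 TPM in control replicates 1, 2 and 3. The BPA libraries were all higher, by a small margin, and the ratio of means was 1.15. The log2 difference was 0.18 (SE 0.09, 95% confidence interval -0.03 to 0.39), with an adjusted p of 0.901 by limma. The log2 differences of the other tested synthetases lay nearer to 0. ACSL4, which prefers arachidonate, averaged 23.3 ± 1.75 TPM in BPA libraries and 23.2 ± 0.81 TPM in control libraries, and the log2 differences of ACSL3 and ACSL5 were -0.02 (SE 0.08) and -0.02 (SE 0.12). ACSL6, a synthetase of brain, was not tested and lay at 0.10 to 0.18 TPM with BPA and 0.18 to 0.21 TPM in control.

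ACSL1 held a larger share of the synthetase messages in each BPA library than in any control library, although ACSL4 was the most abundant form in every library. The ACSL1 share of the summed TPM of the 5 synthetases was 27.4%, 29.9% and 30.2% in BPA replicates 1, 2 and 3, against 25.8%, 27.0% and 26.1% in control replicates 1, 2 and 3. The sum of all 5 overlapped between groups, at 51.7 to 56.9 TPM with BPA and 52.5 to 54.2 TPM in control. Over the 5 steps, the shares of ACSL6, AGPAT2 and AGPAT3 were separated too, with BPA lower. Shares were not tested and have no background over all genes. With 3 libraries against 3, an exact permutation test cannot go below 0.1.

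GPAM, the acyltransferase of the mitochondrial outer membrane, had 90.2, 83.1 and 67.9 TPM in BPA replicates 1, 2 and 3, against 71.3, 71.4 and 69.3 TPM in control replicates 1, 2 and 3. Control libraries were close together, and BPA replicates 1 and 2 lay above them while replicate 3 lay just below. This gave a log2 difference of 0.17 (SE 0.12, 95% confidence interval -0.13 to 0.48). Without BPA replicate 3 it was 0.29 (SE 0.07, interval 0.12 to 0.47), with an unadjusted p of 0.00794 and an adjusted p of 0.717 by limma. Without BPA replicate 1 it was 0.088, with an unadjusted p of 0.484, and these were the highest and the lowest value when each library was left out in turn. A long non-coding RNA gene, LOC102151632, overlaps GPAM in the NCBI gene table and had 60.8, 67.6 and 49.7 TPM in the BPA libraries and 71.8, 62.2 and 70.7 TPM in the control libraries. Whether the authors' counting separated the strands is not given, so the GPAM level carries that uncertainty.

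GPAT3, the form of the endoplasmic reticulum, had 6.64, 6.48 and 4.44 TPM in BPA replicates 1, 2 and 3, against 5.99, 5.67 and 5.81 TPM in control replicates 1, 2 and 3. As with GPAM, BPA replicates 1 and 2 lay above every control library and replicate 3 below. Its log2 difference was -0.01 (SE 0.15) with all libraries and 0.15 (SE 0.07) without BPA replicate 3. GPAT4, another form of the endoplasmic reticulum, had a higher level than GPAT3 in every library and averaged 54.6 ± 2.56 TPM in BPA libraries and 51.2 ± 1.31 TPM in control libraries. GPAT2, a form of testis, was at or below 0.175 TPM. Of the summed first-step messages GPAM held 53.1% to 60.7% with BPA and 54.9% to 55.5% in control, and GPAT3 held 3.48% to 4.47% with BPA and 4.41% to 4.65% in control.

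AGPAT2, whose loss causes generalized lipodystrophy in humans, had 12.2, 21.2 and 29.6 TPM in BPA replicates 1, 2 and 3, against 17.5, 24.7 and 19.6 TPM in control replicates 1, 2 and 3. BPA replicates 1 and 3 were the lowest and the highest of all 6 libraries, so the control range lay inside the BPA range. AGPAT2 had a log2 difference of -0.04 (SE 0.32, 95% confidence interval -0.84 to 0.76). It was -0.32 (SE 0.27) without BPA replicate 3, 0.29 without BPA replicate 1 and 0.09 without control replicate 2, so its sign depended on which library was left out.

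AGPAT3, which favours polyunsaturated acyl chains, had 0.626, 0.914 and 1.37 TPM in BPA replicates 1, 2 and 3, against 0.730, 1.06 and 0.810 TPM in control replicates 1, 2 and 3. The groups overlapped, and an exact two-sided permutation test over the 6 libraries gave p = 0.8, where 0.1 is the smallest possible. AGPAT1, the other abundant enzyme of this step, had 49.3 TPM in BPA replicate 3 and 13.5 and 20.5 TPM in BPA replicates 1 and 2, against 13.9 to 23.3 TPM in control. Less variable were AGPAT5, at 10.7 ± 0.60 TPM with BPA and 9.94 ± 0.39 TPM in control, and AGPAT4, at 1.26 ± 0.09 TPM with BPA and 1.28 ± 0.04 TPM in control.

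The AGPAT2 share of this step varied less between control libraries than between BPA libraries. AGPAT2 supplied 31.3%, 38.9% and 32.2% of the summed AGPAT messages in BPA replicates 1, 2 and 3, against 40.5%, 40.6% and 40.9% in control replicates 1, 2 and 3. Every BPA library was below every control library, which was not tested. The AGPAT3 share was also lower in each BPA library, at 1.495% to 1.676% against 1.69% to 1.742% in control. The enzymes with larger shares differed between BPA libraries: AGPAT1 held 53.8% of the sum in BPA replicate 3, against 32.2% to 38.4% in control, and AGPAT5 held 29.1% in BPA replicate 1, against 17.1% to 22.6% in control.

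LPIN1, the lipin whose loss causes fatty liver dystrophy in mice, had the smallest p of the 8 tested enzymes. Its levels were 1.40, 1.85 and 1.50 TPM in BPA replicates 1, 2 and 3, against 1.07, 0.962 and 0.933 TPM in control replicates 1, 2 and 3. All BPA libraries were higher, the ratio of means was 1.60, and BPA replicate 3 lay between the other BPA libraries. LPIN1 had a log2 difference of 0.38 (SE 0.10, 95% confidence interval 0.13 to 0.62), with an unadjusted p of 0.00957, rank 89 of all tested genes, and an adjusted p of 0.901 by limma. At about 1 TPM and unknown depth its counting error cannot be judged. With a pseudocount of 0.1 in place of 1 the log2 difference was 0.62, and with 5 it was 0.14.

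LPIN2, a lipin of liver, had 10.9, 11.6 and 13.8 TPM in BPA replicates 1, 2 and 3, against 9.26, 11.1 and 10.0 TPM in control replicates 1, 2 and 3. Control replicate 2 lay between BPA replicates 1 and 2, so the groups overlapped. For LPIN2 the log2 difference was 0.23 (SE 0.12, 95% confidence interval -0.08 to 0.54) and 0.14 (SE 0.10) without BPA replicate 3. LPIN3, the remaining lipin, had 18.7 TPM in BPA replicate 3 and 6.14 and 7.48 TPM in the other BPA libraries, against 5.13 to 9.22 TPM in control. LPIN1 was the minor lipin throughout, with 4.41% to 8.83% of the lipin messages with BPA and 4.52% to 6.91% in control. LPIN2 held 59.1%, 55.5% and 40.5% in BPA replicates 1, 2 and 3, and 52.2% to 59.9% in control.

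DGAT1, which esterifies mainly fatty acids taken up from outside, had 2.01, 3.67 and 6.23 TPM in BPA replicates 1, 2 and 3, against 2.00, 3.77 and 2.47 TPM in control replicates 1, 2 and 3. Its BPA mean was raised by replicate 3, and BPA replicates 1 and 2 lay inside the control range. The log2 difference of 0.34 (SE 0.35, 95% confidence interval -0.52 to 1.21) was 0.03 (SE 0.28) without that library, 0.66 without BPA replicate 1, 0.20 without control replicate 1 and 0.53 without control replicate 2.

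DGAT2, which acts at the endoplasmic reticulum and the lipid droplet, had 1.86, 2.56 and 2.13 TPM in BPA replicates 1, 2 and 3, against 1.63, 2.10 and 1.48 TPM in control replicates 1, 2 and 3. Only control replicate 2 reached into the BPA range. DGAT2 had a log2 difference of 0.22 (SE 0.13, 95% confidence interval -0.11 to 0.55), and one of 0.23 (SE 0.15) without BPA replicate 3. It was 0.14 without BPA replicate 2 and 0.31 without control replicate 2, the ends of its range when each library was left out. DGAT2 supplied 48.0%, 41.1% and 25.5% of the summed DGAT messages in BPA replicates 1, 2 and 3, against 44.8%, 35.8% and 37.4% in control replicates 1, 2 and 3. The last step had the smallest sum of the 5 steps in every library: DGAT1 and DGAT2 together came to 3.87 to 8.36 TPM with BPA and 3.63 to 5.88 TPM in control. The first step, with the largest sum, had 128 to 149 TPM with BPA and 125 to 130 TPM in control.

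**Figure D2:**
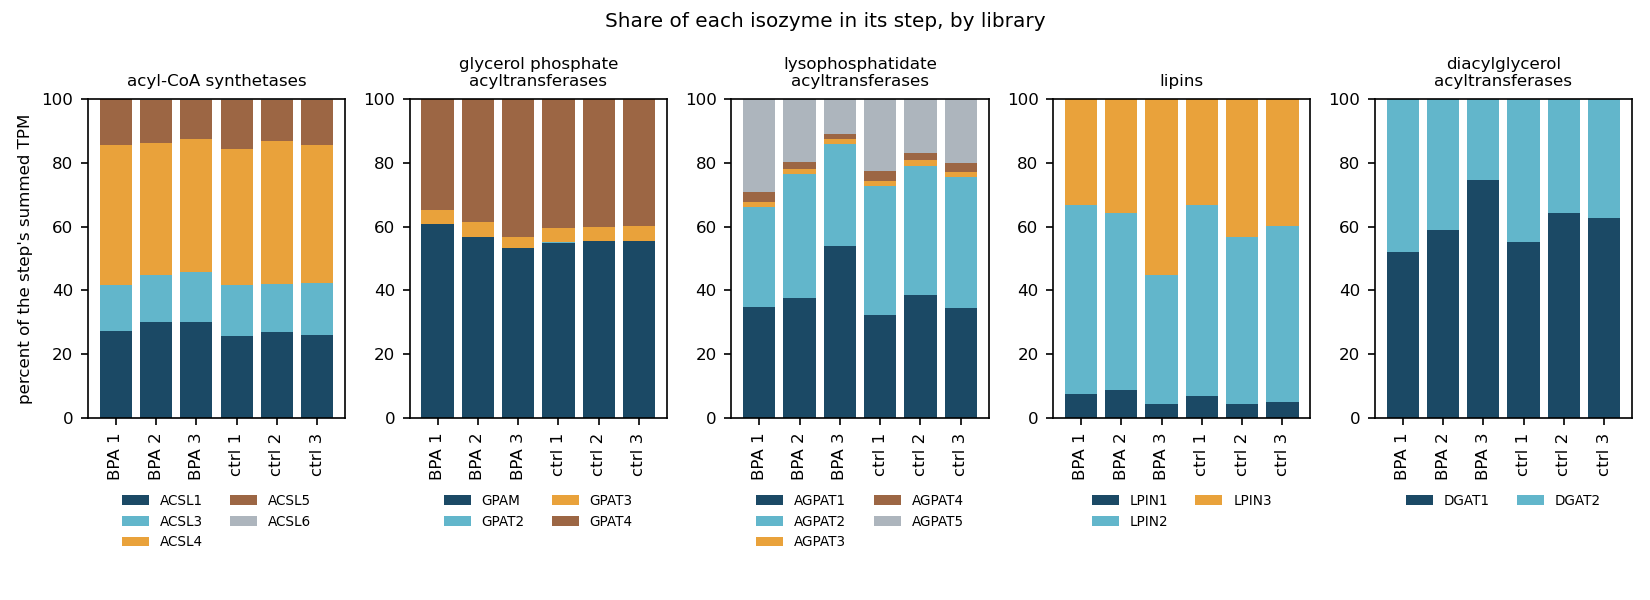
Percent of the summed TPM of each enzymatic step (vertical axis) taken by each isozyme, in the 3 BPA libraries and the 3 control (ctrl) libraries. The AGPAT2 share is 31.3% to 38.9% with BPA and 40.5% to 40.9% in control, and BPA replicate 3 stands out for AGPAT1, LPIN3 and DGAT1.

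The enzymes differed in how they behaved in BPA replicate 3 and control replicate 2, as did all tested genes. On the first principal component these libraries were at 61.1 and 11.3, with BPA replicate 2 next at -0.10. DGAT1, AGPAT2, AGPAT3 and LPIN2 were highest in BPA replicate 3 among BPA libraries and in control replicate 2 among control libraries. This held for 3 of the 8 tested enzymes and for 36.1% of all tested genes, so it was not particular to the enzymes. In BPA replicate 3 DGAT1 was 2.19 times the mean of the other BPA libraries, AGPAT2 1.77, AGPAT3 1.78 and LPIN2 1.22 times. The ratios of control replicate 2 to the other control libraries were 1.69, 1.33, 1.38 and 1.15 for the same genes. GPAT3 did the opposite and was lowest in both, at 0.677 and 0.961 times. That was 1 of the 8 tested enzymes, beside 3846 of all 12277 tested genes. ACSL1, LPIN1 and DGAT2 differed little between BPA replicate 3 and the other BPA libraries, at 0.962, 0.921 and 0.965 times, and GPAM was at 0.784 times. DGAT2 in control replicate 2 was 1.36 times the mean of the other control libraries. Whether RNA quality, cell makeup or culture set the levels in BPA replicate 3 and control replicate 2 was not tested.

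Without BPA replicate 3 the remaining BPA libraries lay above every control library for 4 of the 8 enzymes, ACSL1, GPAM, GPAT3 and LPIN1, beside 14.5% of all tested genes. At an unadjusted p under 0.05 there were 3 of 8 higher, GPAM, LPIN1 and ACSL1 (0.0497), beside 3.34% of all tested genes. By limma 0 of the 8 passed after adjustment, with adjusted p from 0.717 to 0.999. The median difference was then 0.17 for the 8 enzymes and 0.02 over all tested genes. Leaving out any other single library gave 1 of 8 enzymes higher at that unadjusted limit, LPIN1, beside 77 to 530 of 12277 genes. With control replicate 2 left out as well as BPA replicate 3, there were 2 of 8, GPAM and LPIN1, beside 438 genes. ACSL1 then had an unadjusted p of 0.0584 by limma.

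**Figure D3:**
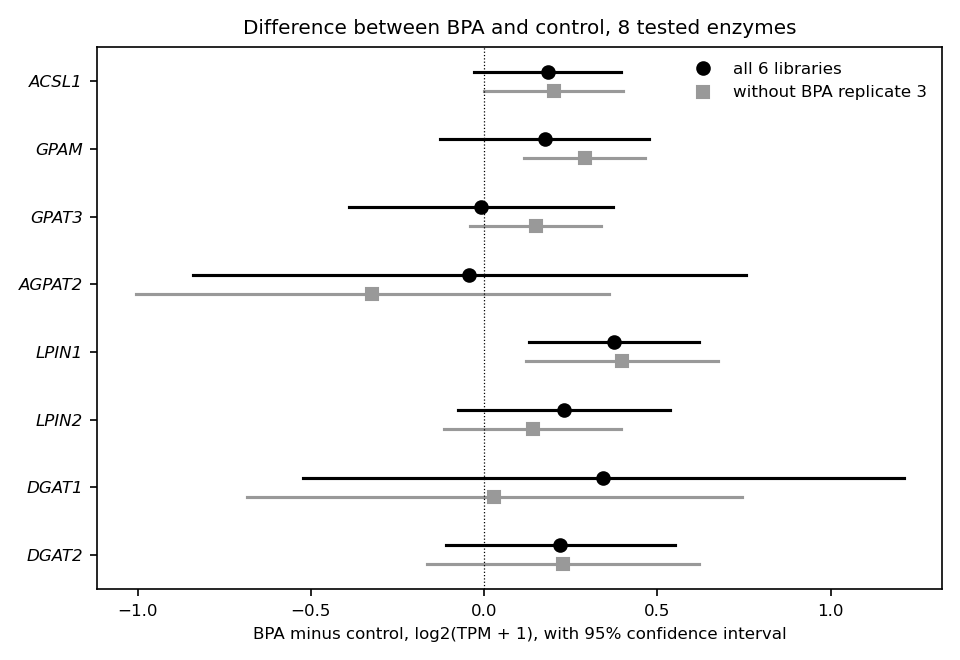
Difference of BPA minus control in log2(TPM + 1) for the 8 tested enzymes with 95% confidence intervals from limma, with all 6 libraries (black circles) and without BPA replicate 3 (grey squares). LPIN1 excludes 0 in both, GPAM (0.29) and ACSL1 (0.20) only without that library, and the intervals of AGPAT2 and DGAT1 are the widest of the 8.

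The enzymes also differed in how far the control libraries agreed. The coefficient of variation in control was 1.66% for GPAM, 2.76% for GPAT3, 3.68% for ACSL1 and 7.16% for LPIN1, but 18.0% for AGPAT2, 18.9% for DGAT2, 19.8% for AGPAT3 and 33.3% for DGAT1. With BPA it was 14.2% for GPAM, 20.9% for GPAT3, 4.71% for ACSL1 and 15.0% for LPIN1. It was 41.5% for AGPAT2, 16.3% for DGAT2, 38.8% for AGPAT3 and 53.5% for DGAT1 with BPA. Of the 9 enzymes, only DGAT2 had a lower coefficient of variation with BPA than in control. LPIN2 was intermediate, with 12.4% with BPA and 9.19% in control.

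A further 43 genes of the pathway were listed, of which 38 were analysed and 29 tested. By limma 0 of the 29 passed in either direction, and at an unadjusted p under 0.05 there were 0 higher and 0 lower. On the log2 scale 18 of these averaged above control, beside 56.6% of all tested genes, with a median difference of 0.09. That median was 0.008 without BPA replicate 3, with 16 of 29 above control, and 0.0045 after median centring, with 15 of 29 above. BPA replicate 3 and control replicate 2 were the highest of their groups for 13 of the 29, beside the 36.1% over all tested genes.

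In 2 of the 29 tested genes every BPA library was above every control library, beside 5.38% of all tested genes. Both, GPD1 and GPD1L, supply glycerol 3-phosphate. In 0 of the 29 was every BPA library below. GPD1, the cytosolic glycerol-3-phosphate dehydrogenase, had 1.21, 1.42 and 2.75 TPM in BPA replicates 1, 2 and 3, against 1.05, 0.950 and 0.430 TPM in control replicates 1, 2 and 3 (log2 difference 0.60, SE 0.25). Without BPA replicate 3 that difference was 0.37. Its relative GPD1L, named after its values were seen, averaged 2.72 ± 0.22 TPM in BPA libraries and 2.30 ± 0.04 TPM in control. Both kept an adjusted p of 0.901 by limma. Glycerol kinase (GK) overlapped at 1.02 ± 0.22 TPM with BPA and 0.918 ± 0.02 TPM in control, and AQP7, the glycerol channel of fat cells, was at or below 0.150 TPM in every library.

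Among genes of droplet formation and lipin regulation the smallest p belonged to FITM2, which helps droplets bud from the endoplasmic reticulum. It averaged 51.3 ± 7.42 TPM in BPA libraries and 40.5 ± 4.48 TPM in control, with control replicate 2 above BPA replicate 1 (log2 difference 0.33, SE 0.14). PLPP3, a lipid phosphate phosphatase of the cell surface named after its values were seen, had 7.63, 10.3 and 17.4 TPM with BPA and 5.24, 8.15 and 5.46 TPM in control, with a log2 difference of 0.76 (SE 0.31), or 0.46 without BPA replicate 3. On the branch from phosphatidate to phospholipid the smallest p was that of CDS2, which makes CDP-diacylglycerol, at 28.5 ± 5.11 TPM with BPA and 22.9 ± 2.73 TPM in control. CDS2 differed by 0.30 on the log2 scale, and by 0.17 without BPA replicate 3. Its relative CDS1, too low to be tested and named after its values were seen, had 0.186 to 0.239 TPM with BPA and 0.257 to 0.297 TPM in control. TMEM68, the other tested gene of the last step, averaged 6.28 ± 1.24 TPM in BPA libraries and 6.79 ± 0.53 TPM in control. FITM2, PLPP3, CDS2 and TMEM68 each overlapped between groups.

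**Figure D4:**
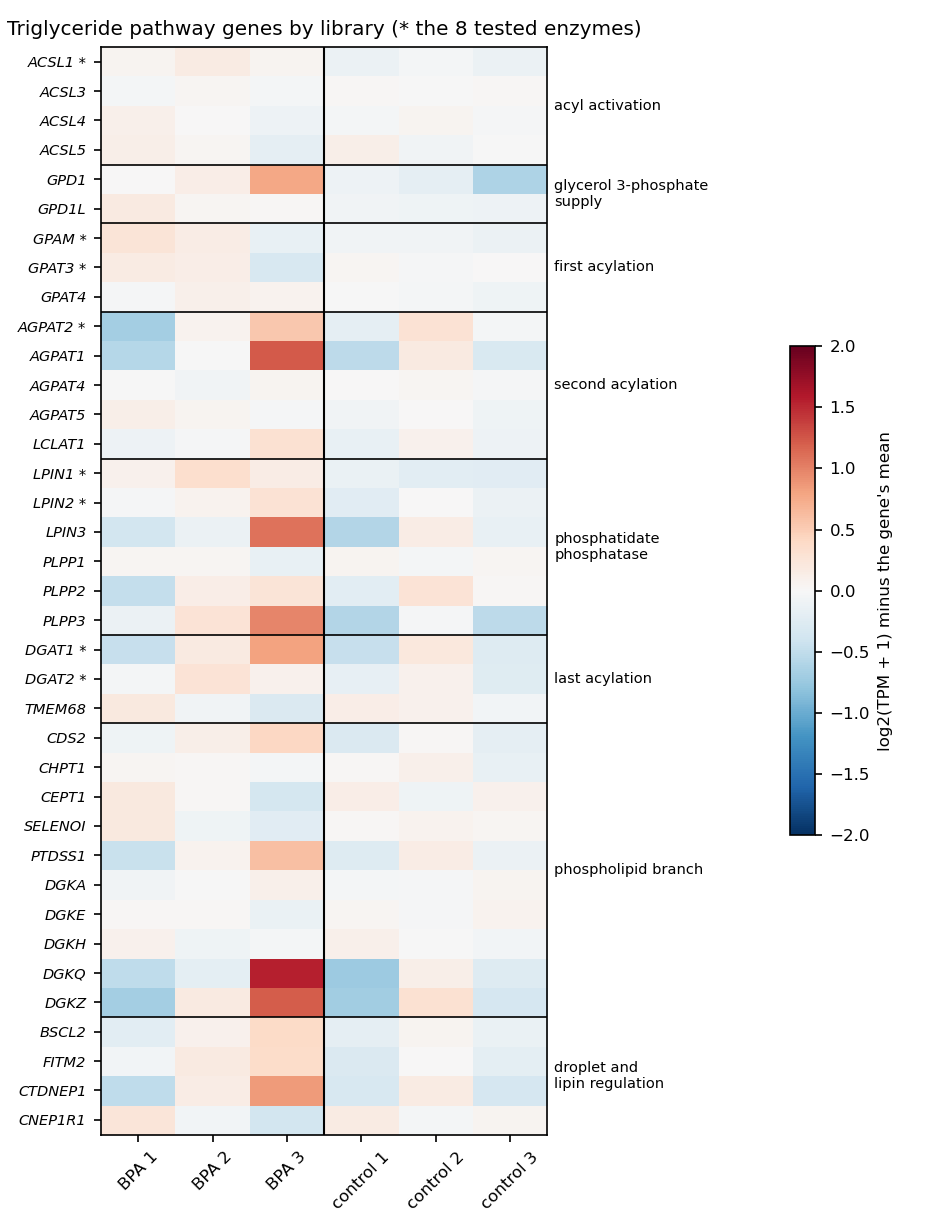
Level of the 37 tested pathway genes (rows, ordered by step, the 8 tested enzymes marked by an asterisk) in each library (columns), as log2(TPM + 1) minus the gene's mean over the 6 libraries. BPA replicate 3 holds the strongest colours, for DGKQ, DGKZ, AGPAT1 and LPIN3, while GPD1 is the gene of widest contrast among those without overlap between groups.

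Genes of closest profile were found by the root mean square difference from each enzyme of log2(TPM + 1), centred over the 6 libraries. For DGAT1 they were MPST, BCKDK and SLC25A1, at 0.0268 to 0.0346, and BCKDK had 168 TPM in BPA replicate 3, against 70.6 and 108 TPM in BPA replicates 1 and 2. For GPAM they were GSTCD, EXTL2 and PDGFD, at 0.0187 to 0.0250, and for ACSL1 TCEAL4, RETREG3 and TMTC1, at 0.0199 to 0.0254. LPIN1 had looser neighbours, C5AR2, TMEM42 and METTL7A, at 0.0745 to 0.0758, and METTL7A averaged 86.7 ± 6.81 TPM in BPA libraries and 64.9 ± 5.97 TPM in control libraries. Those of DGAT2 were ALAD, ACOT4 and C6H16orf91, at 0.0289 to 0.0509. For GPAT3 the nearest was DNAJC8 (0.0135), for LPIN2 TBC1D5 (0.0152) and for AGPAT2 MSC (0.0563). These are the nearest among all tested genes over 6 libraries, which share the axis of variation named above, and carry no test.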

How the data were processed

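The authors deposited 1 table of log2 values, log2(TPM + 1), for 6 poly(A)-selected, stranded libraries. 2 raised to each value minus 1 summed to 1000000 TPM in every column, which gave the base and the pseudocount of 1. For the aligner, the counter, the build and the annotation the entry is: not given in the sources used here. Therefore no coordinates are printed. All 9 enzymes matched a symbol in NCBI's table of the dog assembly UU_Cfam_GSD_1.0, used only for names and overlapping genes. LPIN1, ACSL1 and DGAT1 also overlap other genes there, whose levels were not analysed here.

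The comparison used limma 3.58.1 under R 4.3.3 (empirical Bayes with a trend, two-sided, no covariate) on genes with a mean of at least 1. Benjamini-Hochberg adjustment ran over all tested genes, with a threshold of 0.05. Each mean and SD is of 3 TPM values. The test was checked on simulated data in which genes varied independently and the planted changes were larger than those of the enzymes. That check therefore does not cover the axis of variation shared by these libraries. The enzymes, gene lists and alternatives were chosen with earlier results of these data known. Beyond the 9 enzymes, the text names their isozymes, the gene of smallest p in each other role, fixed markers, and each enzyme's 3 nearest profiles, named by symbol. Of the marker and pathway lists, THY1, DES, AIF1, LDAF1, MOGAT1, MOGAT2, DGAT2L6 and AWAT1 were not analysed here. Alternatives were no filter or one at a mean of 3, other pseudocounts (0.1 and 5), quantile normalization, median centring, limma without trend, robust or with array weights, a replicate block, and leaving out libraries.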

Additional observations from a re-analysis of the deposited data

How the results depend on the processing

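By limma 0 genes were called higher and 0 lower under every alternative except those that follow. Without a filter 3 were higher and 3 lower, none of them among the 9 enzymes. Without BPA replicate 3 there were 0 higher and 1 lower, so over the 6 fits that left out a library the lower calls ranged from 0 to 1. With BPA replicate 3 and control replicate 2 both left out there were 0 higher and 2 lower. limma's default array weights stopped before convergence with a weight of 6490 on BPA replicate 2 and at most 1.24 on any other library, so its values were not used. The gene-by-gene estimate, added after seeing the data, weighted BPA replicate 2 at 7.07, control replicate 3 at 3.96 and BPA replicate 3 at 0.115. It called 537 genes higher and 344 lower, among them LPIN1, ACSL1, GPAM and DGAT2 (adjusted p 0.0153 to 0.0342) and 2 of the other pathway genes, higher. These calls rest mainly on 1 library per group.

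The difference of LPIN1, LPIN2, ACSL1, GPAM, DGAT1 and DGAT2 stayed above 0 under each alternative run. AGPAT2 turned to 0.29 without BPA replicate 1, 0.09 without control replicate 2 and 0.082 with gene-by-gene weights (leaving out a library, -0.32 to 0.29). GPAT3 turned to 0.15 without BPA replicate 3, 0.0084 without control replicate 1, 0.13 without both libraries and 0.13 with gene-by-gene weights (leaving out a library, -0.096 to 0.15). The cause was not tested. AGPAT3 ranged from -0.08 to 0.20, DGAT1 from 0.03 to 0.66. Leaving out each library in turn, LPIN1 ranged from 0.30 to 0.43, ACSL1 from 0.15 to 0.21, LPIN2 from 0.14 to 0.30, GPAM from 0.088 to 0.29 and DGAT2 from 0.14 to 0.31. After median centring the differences were 0.099 for ACSL1, 0.091 for GPAM, 0.29 for LPIN1, 0.15 for LPIN2, 0.26 for DGAT1 and 0.14 for DGAT2. Quantile normalization gave 0.10 for ACSL1, 0.11 for GPAM and 0.40 for LPIN1. Same-numbered libraries deviated together for replicate 1 but not for replicates 2 and 3 (correlations 0.718, -0.440 and -0.233), so the numbers were not taken to pair the libraries. With the replicate block 0 genes passed, as without it, and the unadjusted limit of 0.05 was met by 131 genes above control and 133 below. LPIN1 then had an unadjusted p of 0.0333. BPA minus control, the LPIN2 share of its step was -3.99 percentage points with all libraries and 1.59 without BPA replicate 3, and the DGAT2 share -1.14 and 5.20.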
